A study of Coprinopsis cinerea AmutBmut pab1-1 with 7 samples.

Results

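The genes described here are 6 neighbouring gene models on scaffold 96 of the *Coprinopsis cinerea* Amut1Bmut1 *pab1-1* genome, with protein IDs 479570, 426057, 399959, 451005, 461496 and 289976, out of 14242 models in the table. They were chosen as a run of adjacent models on the reverse strand whose counts were higher in both *cre1* mutants than in the wild type, so their mutant levels and fold changes are given as a description, without a test. The data are Quant-Seq libraries, in which the 3′ ends of polyadenylated transcripts are sequenced, from mycelium that had grown for 84 h on cellophane over YMG medium (0.2% glucose), kept dark at 28°C. The Δ*cre1*-43 strain (2 libraries) and the Δ*cre1*-91 strain (2 libraries) are separate transformants in which *cre1* was replaced with a *pab1* marker by means of a Cas9 ribonucleoprotein, and each is a single line. The wild type (3 libraries) is the homokaryotic AmutBmut *pab1-1* parent of both, which needs p-aminobenzoic acid and lacks the marker, so the loss of *cre1* and the gain of *pab1* cannot be told apart in either comparison with it. According to the study, a small fragment of *cre1* could still be amplified from both mutants after many PCR cycles.

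Carbon catabolite repression is the process by which fungi keep genes for the use of complex carbon sources silent while glucose is present. Its main regulator, called Cre1, CreA or Mig1 depending on the species, is a zinc finger protein that binds promoters and represses transcription. Among its targets in other fungi are enzymes that degrade the plant cell wall. In fungal genomes, genes that are switched on together sometimes lie next to each other.

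Between 6232853 and 8514379 reads were assigned to genes in the 4 mutant libraries, against 10196878 to 10784958 in the 3 wild-type libraries. A count of 3 reads corresponds to 0.278 to 0.481 CPM, the count scaled to library size, in these libraries before TMM scaling. The CPM values below include that scaling, with which 3 reads were 0.277 CPM in wild-type replicate 1. Counts of 3 reads or fewer are close to the limit of detection. The labels do not say that the libraries of a strain came from separate cultures, so p-values measure the spread between these libraries only. Reads were still assigned to *cre1* itself (protein ID 466792), with counts of 58 and 69 in Δ*cre1*-43, 67 and 49 in Δ*cre1*-91 and 94.5, 81 and 122 in the wild type. Its log2 fold change was -0.14 ± 0.27 (SE, adjusted p = 0.851 from the quasi-likelihood test of edgeR, Benjamini-Hochberg adjusted) in Δ*cre1*-43 and -0.33 ± 0.27 (adjusted p = 0.495) in Δ*cre1*-91. Without wild-type replicate 3 the value for Δ*cre1*-43 was 0.024. A decrease of *cre1* was thus not detectable. The counts take in the 3′ overhang outside the coding sequence and do not test the deletion, so the mutants are named here by their labels, and every direction below rests on those labels.

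The run spans 9166 bp of scaffold 96, from position 11445 to 20610 of the deposited annotation, and all 6 models lie on the reverse strand. In the order of transcription, 289976 is thus the most upstream model (18873 to 20610), followed by 461496 (16825 to 18581), 451005 (14968 to 15770), 399959 (13391 to 14273), 426057 (12306 to 13217) and 479570 (11445 to 12299). These positions include the overhang that was counted with each gene, which is 400 bp in 96.7% of all models. The spaces between neighbouring members were 291, 1054, 694, 173 and 6 bp, read from 289976 downstream. No member overlapped any other model. To the left, 397 bp separated the run from model 399954 on the same strand, whereas to the right 2152 bp separated it from model 498754, which lies on the opposite strand.

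**Figure D1:**
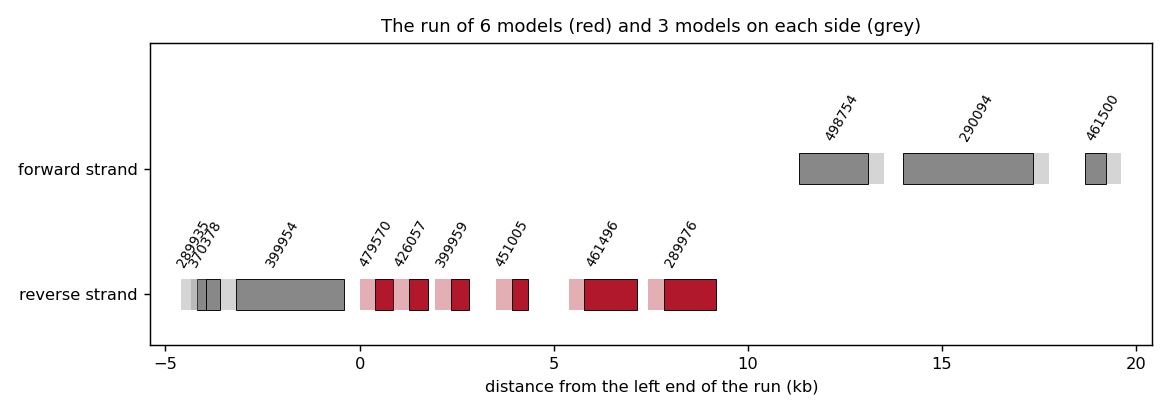
Map of the run and 3 models on each side, drawn to scale as distance in kb from the left end of the run; dark boxes span the first to the last coding base, pale boxes are the 3′ overhang counted with each model, red marks the members. The 6 members lie head to tail on the reverse strand and the models to the right lie on the forward strand.

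One of the 6 members has an annotated enzyme family in the study's list of carbohydrate-active enzymes. Protein 289976 belongs to carbohydrate esterase family CE16, whose members are acetylesterases that take acetyl groups off plant polysaccharides and their fragments, and the list gives pectin and other polysaccharides as its substrate. No annotation was found for the other 5 members in the tables used here, and they are named by protein ID only.

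The 5 unannotated members shared a gene structure that played no part in their choice. Each had 4 coding exons, of which the inner pair was short. These inner exons, numbers 2 and 3, measured 43 and 26 bp in 479570, 426057, 399959 and 461496, and 46 and 26 bp in 451005. Across the annotation, 1817 models had 4 coding exons, 191 had an inner coding exon of 26 bp and 167 an inner coding exon of 43 bp. A coding exon of 43 bp followed directly by one of 26 bp was found in 4 models, all of them members. Allowing 43 or 46 bp for the longer exon gave 6 models, the 5 members and model 466898 on scaffold 258, which has 17 coding exons. The outer exons differed more. The first coding exon measured 160 bp in 479570, 115 bp in 426057, 97 bp in 399959, 94 bp in 451005 and 76 bp in 461496. The last coding exon was 38, 137, 161 and 74 bp long in 479570, 426057, 399959 and 451005, and 1061 bp in 461496, whose coding sequence of 1206 bp was the longest of the run. The other 4 had coding sequences of 267 bp (479570), 321 bp (426057), 327 bp (399959) and 240 bp (451005). The CE16 gene 289976 had 9 coding exons and a coding sequence of 921 bp, with neither a 43-bp nor a 26-bp exon. This structure was noticed after the models had been viewed and was not tested.

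**Figure D2:**
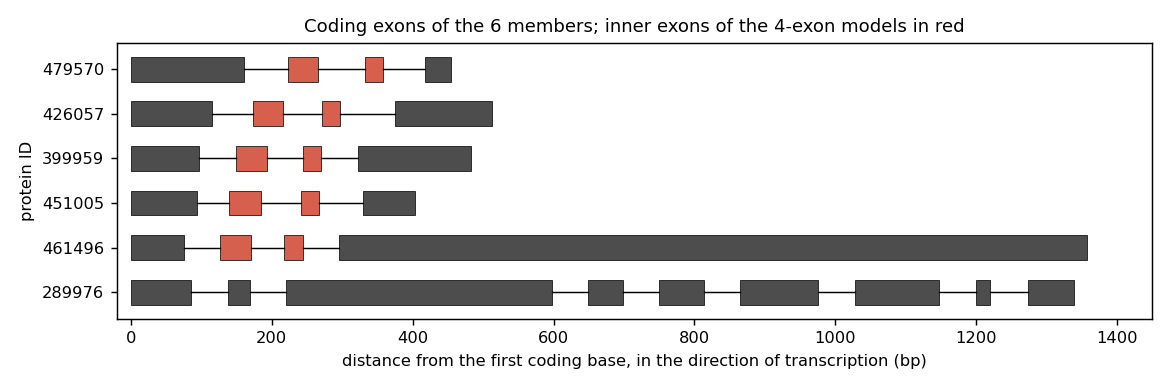
Coding exons (boxes) and introns (lines) of the 6 members, drawn to scale in bp from the first coding base in the direction of transcription; red boxes are coding exons 2 and 3 of the 4-exon models. The inner exons of 43 or 46 bp and 26 bp have like sizes and the same order in 5 members but start at different distances, and 289976 has 9 coding exons.

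Likeness of these 5 genes in sequence was not tested. Models alike in sequence may share reads, so their counts are uncertain to that extent. Of the 42 member values, 7 were not whole, 3 of them in 289976, 2 in 461496 and 1 each in 479570 and 451005. The share of values that were not whole was 20.3% over the whole table. Dropping all fractions of a read changed no direction and no call among the members.

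The members had at least 39 reads each in every mutant library and at most 22 reads each in any wild-type library. By CPM, all 4 mutant libraries lay above all 3 wild-type libraries for each of the 6 members, as for 13.0% of all models. By the limits used by the study, an adjusted p of at most 0.05 and at least a 2-fold change, all 6 were among the models called higher in Δ*cre1*-43 (4.82% of all models), in Δ*cre1*-91 (4.97%) and in both (3.19%). Since the members were chosen on these comparisons, which also share the 3 wild-type libraries, nothing is read from these counts. The median log2 fold change of the members was 5.60 in Δ*cre1*-43 and 4.90 in Δ*cre1*-91, against 0.0 over all models in either mutant.

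The CE16 gene 289976 had 43.0 and 25.8 CPM in Δ*cre1*-43, 17.5 and 20.1 CPM in Δ*cre1*-91, and 0.831, 0.584 and 1.02 CPM in the wild type. The groups did not overlap, and the wild-type libraries lay within a narrow range. Its mean was 34.4 ± 12.1 CPM (SD, n = 2) in Δ*cre1*-43 and 18.8 ± 1.83 CPM (n = 2) in Δ*cre1*-91, 42.3 and 23.1 times the wild-type mean of 0.812 ± 0.219 CPM (n = 3). The log2 fold changes were 5.37 ± 0.31 (SE) and 4.50 ± 0.32. Leaving out any single library kept the value for Δ*cre1*-43 between 4.96 and 5.68 and that for Δ*cre1*-91 between 4.32 and 4.70, and this was the only member for which no library moved it by over 1.5 times.

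Next downstream, 461496 had 7.66 and 34.4 CPM in Δ*cre1*-43, 52.1 and 23.7 CPM in Δ*cre1*-91, and 1.39, 1.66 and 1.95 CPM in the wild type. It was the only member with a higher mean in Δ*cre1*-91 (37.9 ± 20.1 CPM) than in Δ*cre1*-43 (21.0 ± 18.9 CPM), and the mutant libraries overlapped each other widely. The lowest mutant library, Δ*cre1*-43 replicate 1, was 3.93 times the highest wild-type library. The log2 fold change was 3.67 ± 0.47 in Δ*cre1*-43 and 4.50 ± 0.47 in Δ*cre1*-91. Single libraries weighed heavily: without Δ*cre1*-43 replicate 2 the value for that strain was 2.18, without replicate 1 it was 4.36, and without Δ*cre1*-91 replicate 1 the value for Δ*cre1*-91 was 3.79. With limma voom 461496 was not called in Δ*cre1*-43.

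The model 451005 had 14.1 and 22.9 CPM in Δ*cre1*-43, 18.5 and 10.6 CPM in Δ*cre1*-91, and 0.554, 2.14 and 0.742 CPM in the wild type. Its log2 fold changes were 4.02 ± 0.41 and 3.67 ± 0.41. They were 4.81 and 4.46 without wild-type replicate 2, the library with the highest wild-type value of this gene.

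The model 399959 had 5.86 and 41.7 CPM in Δ*cre1*-43, 20.8 and 12.3 CPM in Δ*cre1*-91, and 0, 1.17 and 0.0928 CPM in the wild type. These wild-type values correspond to 0, 12 and 1 reads, so that 1 library supplied nearly all of them. The log2 fold changes of 5.83 ± 0.75 and 5.29 ± 0.76 had the largest errors of the 6 members. The value for Δ*cre1*-43 was 3.78 without its replicate 2, 6.63 without its replicate 1, 5.24 without wild-type replicate 1 and 8.64 without wild-type replicate 2, and the value for Δ*cre1*-91 was 8.09 without wild-type replicate 2. By limma voom 399959 was called in neither mutant.

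The 2 models at the downstream end had the fewest wild-type reads. The model 426057 had 10.4 and 27.6 CPM in Δ*cre1*-43, 12.3 and 9.60 CPM in Δ*cre1*-91, and 0.277, 0.487 and 0 CPM in the wild type, where the counts were 3, 5 and 0 reads. Its log2 fold changes were 6.17 ± 0.54 and 5.37 ± 0.56. Without wild-type replicate 2 they were 6.96 and 6.16, and without Δ*cre1*-43 replicate 2 the value for that strain was 5.27. The model 479570 had 27.6 and 38.4 CPM in Δ*cre1*-43, 23.6 and 15.4 CPM in Δ*cre1*-91, and 0.277, 0.390 and 0 CPM in the wild type, from 3, 4 and 0 reads. Its log2 fold changes were 7.15 ± 0.43 and 6.38 ± 0.44, or 7.76 and 6.99 without wild-type replicate 2. These errors were derived from the test statistic and may be too small for so few wild-type reads, so they are not read as precision. The order of the members by fold change is not settled, since 399959 lay below 479570 with all libraries and above it without wild-type replicate 2. With so few wild-type reads, the size of both genes' fold changes depends on a handful of counts. The lowest mutant library had 69 reads of 426057 and 120.2 of 479570. Both genes were chosen for such a gap, so nothing is read from it.

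**Figure D3:**
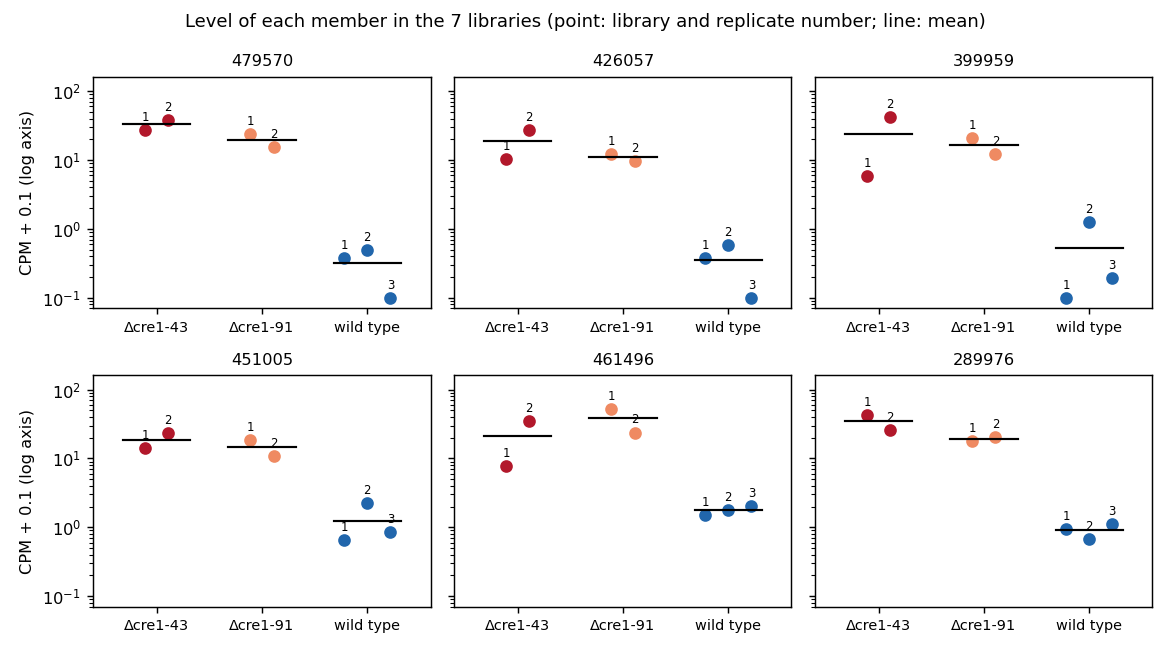
Level of each member in the 7 libraries, as CPM + 0.1 on a log axis; each point is a library with its replicate number, and lines are group means. All mutant points lie above all wild-type points in each panel, and the points of 399959 and 461496 are spread most widely within Δ*cre1*-43.

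Summed over the run, the members gave 109 and 191 CPM in Δ*cre1*-43, 145 and 91.6 CPM in Δ*cre1*-91, and 3.33, 6.43 and 3.81 CPM in the wild type. The ranges of the mutants overlapped, with means of 150 ± 58.2 CPM and 118 ± 37.6 CPM (SD, n = 2 each), and the wild-type mean was 4.52 ± 1.67 CPM (n = 3). The share of 289976 in the sum varied between libraries of 1 strain, at 39.6% and 13.5% in Δ*cre1*-43, 12.1% and 21.9% in Δ*cre1*-91, and 25.0%, 9.09% and 26.8% in the wild type.

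The 5 unannotated members and 289976 deviated in opposite directions between libraries of the same mutant. In Δ*cre1*-43, all 5 were higher in replicate 2 than in replicate 1, by 1.39 times (479570) to 7.13 times (399959), whereas 289976 was 1.67 times higher in replicate 1. In Δ*cre1*-91, the 5 were higher in replicate 1, by 1.28 times (426057) to 2.20 times (461496), whereas 289976 was 1.15 times higher in replicate 2. That last difference was small: its absolute log2 ratio of 0.199 was below the median of 0.256 over 9016 models. The sum of the 5, divided by 289976, was accordingly 1.53 and 6.40 in Δ*cre1*-43, 7.28 and 3.56 in Δ*cre1*-91, and from 2.73 to 10 in the wild type. In the wild type, replicate 2 was the highest library for 479570, 426057, 399959 and 451005, and replicate 3 for 461496 and 289976. For 479570 and 426057 this order rests on 4 against 3 and 5 against 3 reads. The wild-type ratio of 10, in replicate 2, rests on 6 reads of 289976. In both mutants the library with the higher values of the 5 genes was also the deeper one. Assigned reads were 8459151 against 6232853 in Δ*cre1*-43 and 8514379 against 7977328 in Δ*cre1*-91. In the wild type, replicate 2, the highest for 479570, 426057, 399959 and 451005, had the fewest assigned reads, at 10196878. Replicate 3, the highest for 461496, had the most, at 10784958. The part of depth in this pattern was not tested. The pattern was noticed in the data and is given without a test.

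Set against 9016 models with at least 10 reads in each mutant library, some of these replicate differences were among the largest in the table. Within Δ*cre1*-43, the replicate ratio of 399959 exceeded that of 99.9% of the models, that of 461496 exceeded 99.8% and that of 426057 exceeded 98.4%. The other 3 members lay at 72.2% (479570), 86.1% (451005) and 87.6% (289976). Within Δ*cre1*-91, 461496 lay highest at 97.5% and 289976 lowest at 40.4%. The members were thus more variable between libraries of a strain than most models, with the exception of 289976 in Δ*cre1*-91. The models were not matched for their counts in this comparison.

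The difference between the mutants was not itself used to choose the genes and was tested. The choice still bears on it, because models raised in a single mutant could not enter the run. By the quasi-likelihood test of edgeR, with p-values adjusted after Benjamini and Hochberg, 0 of 6 members were called different between the mutants. The share of all models called was 0.246%, and 2 members had an unadjusted p under 0.05. At so low a share, 0 calls among 6 models do not show that the members were alike in the mutants. DESeq2 called 68 of all models and 0 members, which is no more informative, with 2 members at an unadjusted p under 0.05. Limma voom and the fit with the filterByExpr filter each called 0 models in the whole table, so their 0 members says nothing about them. With voom, 1 member had an unadjusted p under 0.05. The CE16 gene 289976 came closest, with a log2 difference of 0.87 ± 0.27 (95% interval 0.31 to 1.42, adjusted p = 0.172). It was followed by 479570 at 0.76 ± 0.30 (0.13 to 1.40, adjusted p = 0.327). The intervals of the other 4 included 0, from -0.05 to 1.65 for 426057, -0.69 to 1.77 for 399959, -0.43 to 1.13 for 451005 and -1.74 to 0.08 for 461496. Each of the 6 intervals reached past a 2-fold difference on one side. The sign for 426057, 399959 and 451005 rested on single libraries: without Δ*cre1*-43 replicate 2 their differences were -0.092, -1.51 and -0.059, and without Δ*cre1*-91 replicate 2 that of 451005 was -0.0026. The smallest adjusted p among the members was between 0.0827 and 0.409 over the alternatives, apart from a crossed pairing of the libraries, added after the data had been seen, which gave 0.00428.

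**Figure D4:**
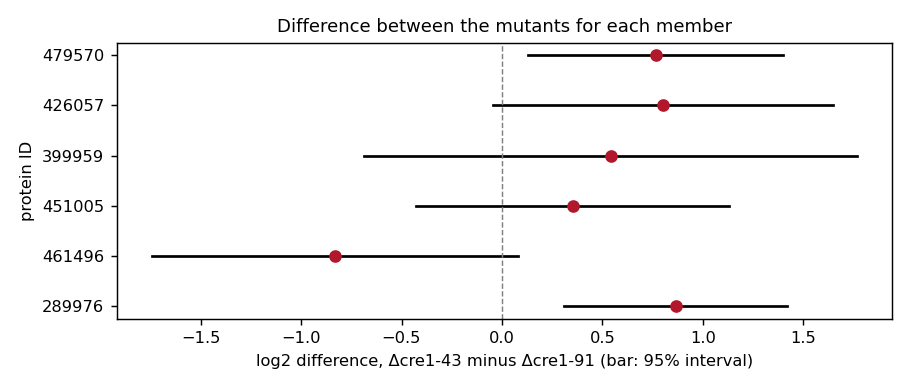
Log2 difference of each member between the mutants, Δ*cre1*-43 minus Δ*cre1*-91, with its 95% interval derived from the edgeR test statistic. The dashed line marks no difference. The point of 461496 lies on the negative side and the other 5 on the positive side, and the intervals of 289976 and 479570 lie above 0.

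The models that bound the run set its ends and are described without a test. On the left, 399954 (7873 to 11047) had 17 and 15 reads in Δ*cre1*-43, 9 and 34 in Δ*cre1*-91, and 8, 21 and 7 in the wild type, with log2 fold changes of 0.91 ± 0.63 and 1.26 ± 0.61. The groups overlapped, and the value just inside this end was 7.15 and 6.38 for 479570. On the right, 498754 (22763 to 24949) had 40.7 and 50.6 CPM in Δ*cre1*-43, 49.6 and 56.9 CPM in Δ*cre1*-91, and 59.4, 64.5 and 59.9 CPM in the wild type. Its log2 fold changes were -0.42 ± 0.17 and -0.20 ± 0.17, so that all 4 mutant libraries lay below the wild type there, against 5.37 and 4.50 just inside for 289976. Farther right, 290094, annotated in the study as an Spt7-like transcriptional activator, had 4.96 and 2.01 CPM in Δ*cre1*-43, 3.81 and 4.09 CPM in Δ*cre1*-91, and 6.37, 4.87 and 7.42 CPM in the wild type. Its groups overlapped, and its log2 fold changes were -0.87 ± 0.38 and -0.65 ± 0.37, neither of which was called.

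Scaffold 96 holds 47 models, 6 to the left of the run and 35 to its right. Of these 41 other models, 4 were called in either mutant, a share close to the 10.6% of all models called in either. Their median log2 fold change was 0.0 in Δ*cre1*-43 and 0.02 in Δ*cre1*-91. Both 426087 and 451038 were higher in both mutants under each of 16 alternatives tried. The model 426087 (47702 to 50356) had 54.5 and 66 reads in Δ*cre1*-43, 20 and 27.12 in Δ*cre1*-91, and 3, 2 and 2 in the wild type. It was at least 28.2-fold higher in Δ*cre1*-43 (adjusted p = 2.97e-07 by edgeR) and at least 10.6-fold higher in Δ*cre1*-91 (adjusted p = 3.82e-05), taking 3 reads in each wild-type library as the floor. The model 451038 (78808 to 79710) rose by 1.32 ± 0.20 (adjusted p = 0.000151 by edgeR) and 1.48 ± 0.20 (adjusted p = 3.25e-05) on the log2 scale. The other 2 calls were less stable. The model 370378 (7095 to 7850), annotated with a fungal cellulose-binding domain, was called in Δ*cre1*-43 on 6 and 4 reads, with 0 and 1 in Δ*cre1*-91 and 0 in each wild-type library, and was lost in 8 of 16 alternatives, among them leaving out any 1 wild-type library. The model 399976 fell by 2.51 ± 0.79 on the log2 scale in Δ*cre1*-91 (adjusted p = 0.0301 by edgeR) and was called in 10 of 16 alternatives. It was lost with the replicate number as a block and without any 1 library of Δ*cre1*-91 or of the wild type. Without wild-type replicate 1 or without replicate 3, the count of other models called was 2.

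**Figure D5:**
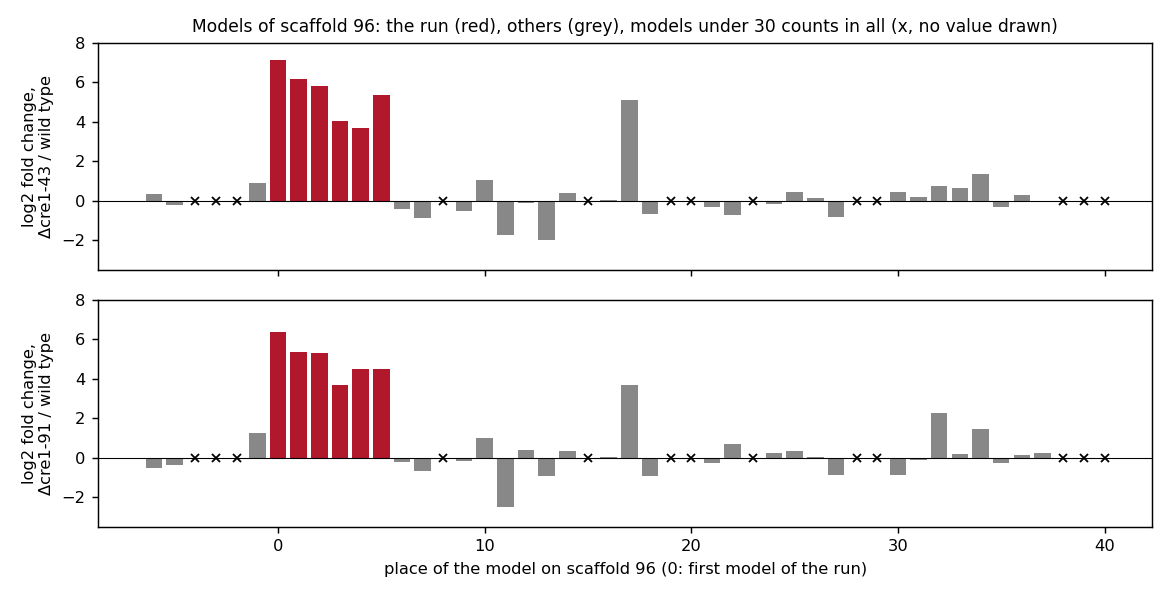
Log2 fold change of the 47 models of scaffold 96 in Δ*cre1*-43 (top) and Δ*cre1*-91 (bottom) against the wild type, in the order of the models along the scaffold; red bars are the members, grey bars other models, and crosses are 13 models with fewer than 30 reads in all, for which no value is drawn. The red bars run from 3.67 to 7.15 in the upper panel, and the tall grey bar to their right is 426087.

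The run was chosen for being adjacent models higher in both mutants, so the count of such runs in the table restates that choice and is given as a description. Among 11034 windows of 6 neighbouring models, 1 had all 6 called higher in both mutants, which is the run itself. There were 27 runs of at least 2 such neighbours and 5 of at least 3. The next longest runs held 3 models and lay on scaffolds 7, 33, 71 and 122. By limma voom no window of 6 was found, since 399959 and 461496 were not called.

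The other genes whose substrates in the study include pectin, the plant cell wall polysaccharide rich in galacturonic acid, give a setting for 289976. Those of families GH1, GH3 and GH51 are also assigned to cellulose or hemicellulose, so the list is not one of pectin alone. The study drew this list of 11 genes from those it had called differentially expressed in these same libraries. Genes without a call could not enter it, so it is not independent evidence of a direction. The values of its genes are given as a description, without a test. Of its other 10 genes, 10 were called higher in Δ*cre1*-43 and 8 in Δ*cre1*-91, and 0 were called lower in either. Their log2 fold changes ran from 1.12 to 3.76 (median 2.42) in Δ*cre1*-43 and from 0.83 to 3.84 (median 2.46) in Δ*cre1*-91. The upper value in each was that of the GH3 gene 444212, which is also assigned to cellulose and hemicellulose. The fold change of 289976 was the largest of the 11 in each. Since 289976 was chosen for higher counts in both mutants, nothing is read from this rank. The list holds 2 more CE16 genes, and both had smaller fold changes than 289976. The CE16 gene 441540 had 37.6 and 37.6 CPM in Δ*cre1*-43, 40.1 and 39.9 CPM in Δ*cre1*-91, and 13.0, 10.7 and 11.4 CPM in the wild type. It was higher by 1.68 ± 0.18 and 1.77 ± 0.18 on the log2 scale. The CE16 gene 369006 had 18.2 and 14.0 CPM in Δ*cre1*-43, 11.9 and 14.3 CPM in Δ*cre1*-91, and 7.58, 8.28 and 6.22 CPM in the wild type. It was higher by 1.12 ± 0.24 on the log2 scale in Δ*cre1*-43, and its change of 0.83 ± 0.24 in Δ*cre1*-91 was under the 2-fold limit.

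The genes outside the run whose levels followed it most closely over the 7 libraries were sought by the root mean square distance from the members' mean profile, on centred log2(CPM + 1) values of 9010 models. The nearest was 417392 (scaffold 19), a glycoside hydrolase of family GH51, a family that includes arabinofuranosidases, at a distance of 0.245. It was followed by 544764 (scaffold 167, 0.258), by the GH3 gene 444212 (scaffold 29, 0.314), by 559306 (scaffold 52, 0.363) and by 455231 (scaffold 24, 0.364), a lytic polysaccharide monooxygenase of family AA9. The models 544764 and 559306 had no annotation in the tables used here. The members themselves lay between 0.194 (426057) and 0.620 (461496) from their own mean, so that these 5 genes were nearer to the mean profile than 4 of the members. The added 1 CPM weighs most on low values such as those of the members in the wild type, and other added values were not tested. By edgeR, the 5 genes had log2 fold changes from 3.50 to 4.81 in Δ*cre1*-43 and from 3.44 to 4.30 in Δ*cre1*-91. These lay below the members' medians of 5.60 and 4.90. The mean profile was set by the difference between the mutants and the wild type, and likeness to it says nothing beyond that.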

How the data were processed

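Quant-Seq libraries of vegetative mycelium were grouped by the strain in their labels. Trimmed reads were mapped by the authors to the Amut1Bmut1 *pab1-1* genome (STAR 2.6.1a), and featureCounts was run on coding exons extended by a 3′ overhang. The deposited table holds estimated counts, since some values are not whole. The authors also deposited a scaled signal table made with edgeR 3.34.0, whose implied library sizes differ by at most 0.168% from those computed here and which served for that check only. The strand setting and the treatment of reads with several places are not given in the sources used here.

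For the tests, estimated counts were first rounded to whole numbers. A single fit of 14242 models took in the 7 libraries, with 1 coefficient for each strain (edgeR 4.0.16 under R 4.3.3, TMM scaling, glmQLFit, glmQLFTest), and p-values were Benjamini-Hochberg adjusted across the table. A model was called at an adjusted p of at most 0.05 and at least a 2-fold change. Each SE is the absolute log2 fold change, refitted without a prior count, divided by the square root of the quasi-likelihood F. The 95% intervals were built from these SE values and the t distribution. Both may be too narrow where a group has few reads. CPM values were computed from these rounded counts and the library sizes after TMM scaling. The code was tested on simulated counts. Alternatives were RLE scaling, library size only, the filterByExpr filter, limma 3.58.1 voom, DESeq2 1.42.0, fits of only the groups compared, no rounding, rounding down, a replicate block, no fold limit, and leaving out each library. No library was the copy of another, since chi-square per degree of freedom between replicates was 11.8 to 20.2.

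Named are the 6 members, 3 models on each side, *cre1*, the study's other CE16 genes and the 5 genes nearest in profile. The members and lists were chosen with earlier results of these data known. The other called models of scaffold 96 and model 466898 were named after their values or structure had been seen. Sequences are not shown here.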

Additional observations from a re-analysis of the deposited data

How the results depend on the processing

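The 6 members stayed higher in both mutants under each alternative, and the calls were lost only with limma voom, for 399959 in both mutants (6.43 in Δ*cre1*-43 and 6.35 in Δ*cre1*-91 on the log2 scale) and for 461496 in Δ*cre1*-43 (3.35). Voom thus gave 0 windows of 6 models called higher in both mutants, against 1 in the other fits. It also moved the median of all models by 0.11 in Δ*cre1*-43 and 0.10 in Δ*cre1*-91. The count of other scaffold 96 models called was 4 in the main fit and 2 with the replicate block. It was 2 or 3 in fits without 1 wild-type library, 6 without rounding and 6 without the fold limit. Where a fit without 1 library left a mutant with 1, that library was taken to vary like the others.

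Between the mutants, the difference of 399959 was -0.036 with the replicate block and from -1.51 to 1.33 without 1 library, that of 426057 from -0.092 to 1.33 and that of 451005 from -0.059 (-0.0026 without Δ*cre1*-91 replicate 2) to 0.84. In Δ*cre1*-43, the flanking model 461500, with at most 8.5 reads in a library, had -0.66 with voom, -0.18 with the replicate block and from -4.94 to 1.19 without 1 library, against 0.29 in the report. There *cre1* had 0.029 with the replicate block and from -0.25 to 0.024 without 1 library. The causes were not tested.

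Replicate numbers were not taken to pair the libraries, because deviations of same-numbered libraries did not all run together: over 9923 models they correlated at -0.204 between the mutants, at 0.120 and 0.144 between Δ*cre1*-43 and the wild type, and at -0.042 and -0.036 between Δ*cre1*-91 and the wild type. The replicate block left the members' calls at 6, 6 and 0 for the 3 comparisons. A crossed pairing, added after the data had been seen, called 1 member between the mutants and 2 other models of scaffold 96. The wild-type libraries were the deepest, and 479570 and 426057 still had between 0 and 5 reads in each of them, which limits the precision of their fold changes.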
